A study of Homo sapiens with 2 samples.

Results

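Antisense long noncoding RNAs are transcripts without a known protein product that are read from the strand opposite another gene, after which they are named with the suffix -AS and a number. This account covers the 145 of 693 genes with such a name that reached an expression level of 1 in either of 2 RNA-seq libraries, out of 55797 genes measured. They were chosen by these same levels, so the levels themselves are given as a description. The level is FPKM, a gene's fragments per kilobase of exon, scaled to the size of the library, as the authors deposited it with a lower and an upper bound. A stretch of the short arm of chromosome 6 was left out, which removed 1 antisense gene. The 145 genes stand for 143 RNAs, because ASMTL-AS1 and PPP2R3B-AS1 lie in the part that the X and Y chromosomes share and are listed on both; their X entries are given here.

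Both libraries came from the human embryonic stem cell line H1, an established line, differentiated to Stage 6, the end of a stepwise protocol toward insulin-producing cells. For the live library (n = 1), RNA was taken with the RNeasy procedure from cells that were neither fixed nor sorted. For the processed library (n = 1), Stage 6 cells were fixed in 4% paraformaldehyde, permeabilised, stained with antibody and run through the sorter with every cell kept. Their RNA was recovered with a modified RecoverAll kit. With 1 library of each kind no difference has a replicate check, and what is compared is these libraries, not the conditions. Stage 6 cultures hold several cell types, and markers of more than 1 were present in both libraries: INS stood at 98.3 FPKM in live and 121 in processed cells, SST at 243 and 266, the liver gene AFP at 460 and 550 and the mesenchymal gene VIM at 514 and 485. In such bulk RNA, fewer cells of a type and less RNA per cell cannot be told apart. The pluripotency factor NANOG was among the markers that stood further apart, at 1.27 and 7.34 FPKM. Other pluripotency markers did not follow it: POU5F1 stood at 7.92 and 8.53, and LIN28A was lower in processed cells, at 119 and 88.7. The part of such markers in the results was not tested.

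Antisense genes differ in how they sit beside the gene they are named after, which is called the sense gene here. Some start next to the sense gene's own start and run away from it, so that the pair shares a promoter region. Others lie inside the sense gene or run into its far end, where the exons of both can cover the same bases. A few are known to act on their neighbour, a few carry small nucleolar RNAs (snoRNAs) in their introns, and for most no role is known. Whether these libraries kept the strand of each RNA is not given in the sources used here, and without strand the reads of an antisense gene cannot be told apart from those of a gene whose exons it overlaps.

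Most antisense genes were silent or nearly so. Of the 693, 174 were listed at 0 in both libraries, 519 were above 0 in at least 1, and 146 (21.1%) reached FPKM 1 in either. The same level was reached by 70.8% of 19201 protein-coding genes and by 17.1% of 328 genes named LINC with a number, another family of long noncoding RNAs. Of the 145 antisense genes kept, 81 reached FPKM 1 in both libraries, 28 in live cells only and 36 in processed cells only. The median level was 1.85 FPKM in live cells, with quartiles of 1.0 and 4.05, and 2.28 in processed cells, with quartiles of 1.18 and 5.93. They held 0.218% of the summed FPKM of the live library and 0.239% of that of the processed library. Just inside the limit stood RBM26-AS1, at 1.0 FPKM in live and 0.0728 in processed cells, P4HA2-AS1, at 0.445 and 1.02, and ENTPD3-AS1, at 1.07 and 0.00474. Just outside it stood HS6ST2-AS1, at 0 and 0.997, FGF14-AS1, at 0.994 and 0, and WNT5A-AS1, at 0.959 and 0.204.

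The 2 most abundant antisense RNAs are snoRNA hosts. C17orf76-AS1, now called SNHG29, stood at 437 FPKM in live cells, with bounds of 431 and 444, and at 408 in processed cells, with bounds of 402 and 414. Its gene on the plus strand, chr17:16342136-16381992 in GRCh37, spans SNORD49A, SNORD49B and SNORD65, snoRNAs that guide the methylation of ribosomal RNA. ZNFX1-AS1, now called ZFAS1, stood at 152 FPKM in live cells (148 to 156) and 126 in processed cells (122 to 129). It lies on the plus strand at chr20:47894715-47905797 and spans SNORD12, SNORD12B and SNORD12C. Both RNAs were lower in processed cells by little: the log2 difference, log2((processed FPKM + 1)/(live FPKM + 1)), was -0.10 and -0.27. Together they made up 53.0% of the members' FPKM in the live library and 44.8% in the processed library.

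In all, 4 of the antisense genes spanned 8 snoRNA genes, each of which was itself listed at 0 in both libraries with the status LOWDATA, in RNA selected for poly-A tails. EPB41L4A-AS1, which carries SNORA13, went the other way from the first pair, from 31.6 FPKM (29.3 to 34.0) to 48.6 (40.9 to 56.2). Its sense gene EPB41L4A differed alike, from 9.47 to 14.9, and 44% of the exon bases of EPB41L4A-AS1 also belong to EPB41L4A. TMEM161B-AS1, which spans an SNORA70 copy, stood at 4.24 (3.39 to 5.09) and 5.93 (5.03 to 6.84), bounds that overlap.

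The other antisense genes among the 10 highest by mean FPKM were near their live level in most cases. FGD5-AS1, which opposes the end of FGD5, stood at 57.0 in live and 51.0 in processed cells. OIP5-AS1, a conserved cytoplasmic RNA also known as Cyrano, stood at 21.5 and 22.4, and THAP9-AS1 at 22.0 and 20.6, with bounds that overlap for both. TPT1-AS1, read away from the translationally controlled tumour protein gene TPT1, stood at 14.1 and 13.5. PCBP1-AS1 was lower in processed cells, at 16.8 and 11.9, as was TP73-AS1, at 16.4 and 11.1. Only RNF185-AS1 of these 10 was past 2-fold, at 4.28 FPKM (1.88 to 6.69) in live and 18.1 (15.7 to 20.5) in processed cells.

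The promoter windows of the most abundant member and of FGD5-AS1, the third in order, are shown because both RNAs are high without a high sense gene. Each runs from 250 bases before to 50 bases after the start of the RNA in RefSeq (GRCh38.p14), and capitals mark the letters GGGCGG (the GC box), CCAAT (the CCAAT box) or TATAAA (the TATA box) on either strand. C17orf76-AS1 is on the plus strand, chr17:16438737-16439036, and FGD5-AS1 on the minus strand, chr3:14948392-14948691.
C17orf76-AS1: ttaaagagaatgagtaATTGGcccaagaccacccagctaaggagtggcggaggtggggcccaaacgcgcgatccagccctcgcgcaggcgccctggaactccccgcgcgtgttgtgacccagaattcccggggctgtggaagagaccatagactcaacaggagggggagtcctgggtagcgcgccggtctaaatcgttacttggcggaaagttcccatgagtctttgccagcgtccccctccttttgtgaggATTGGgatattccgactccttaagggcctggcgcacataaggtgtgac
FGD5-AS1: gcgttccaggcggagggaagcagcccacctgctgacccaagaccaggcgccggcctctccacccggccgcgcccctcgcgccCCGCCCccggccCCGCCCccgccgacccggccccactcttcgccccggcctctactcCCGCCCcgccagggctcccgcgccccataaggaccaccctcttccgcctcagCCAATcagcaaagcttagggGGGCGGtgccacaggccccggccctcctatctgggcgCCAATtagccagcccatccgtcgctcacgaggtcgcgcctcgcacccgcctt
The first window held 19 CG pairs, the CCAAT box letters and no GC box, and the second held 32 CG pairs with both kinds of box. Such letters are a description of the window and say nothing of which factors bind there.

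**Figure D1:**
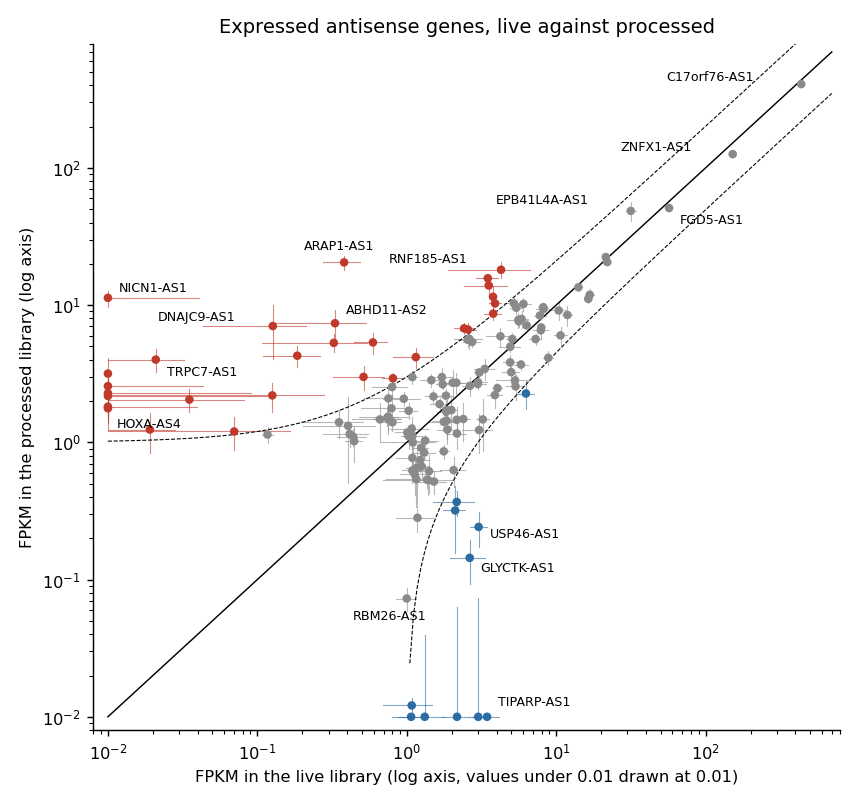
Levels of the 143 antisense RNAs in FPKM, live library on the horizontal axis and processed library on the vertical axis, both log axes, with lines for the bounds in the files and values under 0.01 drawn at 0.01. Red points are past 2-fold higher and blue points past 2-fold lower in processed cells on the log2(FPKM + 1) scale (dashed curves); the abundant RNAs lie near the diagonal, and the red points fill the left of the plot.

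Between the libraries, 30 of the 145 antisense genes (20.7%) were past 2-fold higher in processed cells, beside a background of 6.57% of the 17326 genes that reached FPKM 1 in either library. In the other direction 11 (7.59%) genes were past 2-fold lower, beside 6.19%. The median log2 difference was 0.10 over the members, with a 95% order-statistic interval of -0.09 to 0.38, and -0.09 over the 17326 genes. The FPKM bounds of the libraries did not overlap for 111 members (76.6%), beside 71.8% of the 17326 genes, which is close to the background. The members that passed the limit in a single library had to differ, and they hold most of these calls: 21 of the 30 genes that were higher reached FPKM 1 in processed cells only, and 10 of the 11 that were lower reached it in live cells only. Among the 81 at FPKM 1 or more in both libraries, 9 were past 2-fold higher and 1 was lower. Over all 14635 genes at that level in both, 2.91% were higher and 2.30% lower.

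The 9 genes that were present in both libraries and past 2-fold higher, listed after their values were seen, were RNF185-AS1, NAV2-AS1, MFI2-AS1, OCIAD1-AS1, DHRS4-AS1, LIMD1-AS1, MLLT4-AS1, MCM3AP-AS1 and NR2F2-AS1. NAV2-AS1, inside the axon guidance gene NAV2, stood at 3.49 FPKM (2.91 to 4.06) in live and 15.7 (14.5 to 16.8) in processed cells. MFI2-AS1, inside the melanotransferrin gene, stood at 3.54 (2.42 to 4.66) and 13.9 (12.0 to 15.8). OCIAD1-AS1 stood at 3.78 (3.64 to 3.93) and 11.5 (9.33 to 13.7). The melanotransferrin gene MFI2 itself stood at 1.03 and 3.04, just within 2-fold on the log2 scale. The single gene that was past 2-fold lower was PITPNA-AS1, at 6.28 (5.45 to 7.11) and 2.27 (1.76 to 2.79), which opposes the gene of a phosphatidylinositol transfer protein.

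The 5 members that were higher in processed cells by most had a low level in live cells. ARAP1-AS1, on the plus strand at chr11:72396120-72404853 inside ARAP1, the gene of a GTPase-activating protein, stood at 0.381 FPKM (0.277 to 0.484) in live and 20.5 (18.0 to 22.9) in processed cells, a log2 difference of 3.96. NICN1-AS1 was listed at 6.05e-04 with an upper bound of 0.0406 in live and at 11.3 (9.76 to 12.7) in processed cells. DNAJC9-AS1, whose start overlaps that of DNAJC9, the gene of a heat shock co-chaperone for histones, stood at 0.127 and 7.04. The others of the 5 were ABHD11-AS2, at 0.331 (0.131 to 0.531) and 7.38 (5.53 to 9.23), and TRPC7-AS1, at 0.0209 and 4.01 (3.24 to 4.78). The bounds of all 5 were apart, yet bounds cover the estimate within a library and not the spread between libraries.

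The 5 that were lower by most stood between 2 and 4 FPKM in live cells. TIPARP-AS1, whose start overlaps that of the gene of an ADP-ribosyltransferase that dioxin induces, was listed at 3.45 FPKM (2.73 to 4.17) in live cells and at exactly 0 in processed cells. TIPARP itself stood at 7.38 and 3.75. EAF1-AS1, inside the gene of an elongation factor partner, went from 3.01 (2.61 to 3.41) to 1.31e-07, and FGF12-AS2, inside a fibroblast growth factor homologue gene, from 2.17 to 0.00895. USP46-AS1 stood at 3.03 and 0.242, and GLYCTK-AS1, opposite the glycerate kinase gene, at 2.64 and 0.144. In the other direction HOXA-AS4 was listed at 0 in live cells and at 1.77 (1.24 to 2.30) in processed cells. Values under 0.01 FPKM occurred for 7 members in live and 5 in processed cells, and 1 in each library was exactly 0. An exact 0 or a value such as 1.31e-07 can come from the fit that shares fragments between overlapping transcripts, so no fold is given for these genes.

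These counts differed with where an antisense gene lay relative to its sense gene. The annotation of GENCODE release 44 on the same build gave a strand for 139 of the 145. In 73 cases the pair lay head to head. The heads of 55 of these pairs overlapped, so that each start lay inside the other gene, and 18 pairs were apart with starts facing away. The starts of 44 of the 73 were within 1 kb of each other. A further 31 antisense genes lay wholly inside the sense gene, 25 overlapped its tail, and 16 were in other arrangements, without a sense gene row or without a known strand. Of the 31 inside the sense gene, 14 (45.2%) were past 2-fold higher in processed cells and 3 (9.68%) lower. Of the 55 with overlapping heads 5 (9.09%) were higher and 2 (3.64%) lower, of the 18 apart 1 was higher and 2 lower, and of the 25 with overlapping tails 2 were higher and 2 lower. Among members at FPKM 1 or more in both, 4 of 12 inside the sense gene and 5 of 69 others were past 2-fold higher.

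Among the genes inside their sense gene, 14 had a longest transcript under 600 nt and 15 a longer one. Of the 19 members whose longest transcript was under 600 nt, 13 (68.4%) were past 2-fold higher and 1 was lower. Only 4 of these 19 reached FPKM 1 in both libraries, of which 2 were higher and none was lower. The rest passed the limit in a single library, so much of this share depends on that limit. Members at or above 600 nt gave 12 genes higher and 8 lower, and the 43 in the longest of 4 length classes gave 5 (11.6%) higher and 1 lower. Other genes showed calls in both directions at such lengths: of 1159 non-member genes under 600 nt, 26.9% were higher and 22.3% lower, and of 322 other long noncoding RNA genes under 600 nt, 40.7% were higher and 19.3% lower. Their lengths are of the longest transcript at any position, whereas those of members count only transcripts within the listed position, so the classes are not cut alike. Arrangement and length go together, since 14 of the 19 short members lie inside the sense gene. Inside the sense gene, 9 of 14 under 600 nt and 4 of 15 of at least 600 nt were past 2-fold higher, whereas elsewhere it was 4 of 5 and 8 of 95. PPP2R3B-AS1, of 428 nt, enters these counts with both its X and its Y entry, so 1 RNA gives 2 of those 4 and 2 of the 13 short members.

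Exon overlap gave a further split of the same genes. For 15 members more than 50% of the exon bases also belong to an expressed gene. Past 2-fold higher were 9 of them and lower 3, beside 6.57% and 6.19% of the 17326 genes. Of those higher, ARAP1-AS1, ARHGEF7-AS2, MED4-AS1, ITIH4-AS1 and TAB3-AS1 passed the limit in processed cells only. Of those lower, EAF1-AS1 and ARSD-AS1 passed it in live cells only. Of the 47 members listed with no exon base shared with an expressed gene 10 were higher and 5 lower, a group that includes TTN-AS1 and CD27-AS1, whose shared bases are with a sense gene below the limit. It also holds both entries of PPP2R3B-AS1, each among those higher, and the Y entry of ASMTL-AS1. The X entry of ASMTL-AS1 shares 16.9% of its exon bases with ASMTL. In the group of 47, MLLT4-AS1 and NR2F2-AS1 alone of the 10 higher genes reached FPKM 1 in both libraries. The other higher ones reached it in processed cells only, and all 5 lower ones in live cells only. Of the 55 with up to 20% shared 5 were higher and 1 was lower. RNF185-AS1, a single exon of 353 nt at chr22:31601250-31601602, is covered to 100% by exons of RNF185, the gene of a ubiquitin ligase of the endoplasmic reticulum. ARAP1-AS1 is covered to 99.2% by ARAP1, and NAV2-AS1 to 100% by NAV2. Their sense genes differed from them in size or direction: RNF185 stood at 11.5 and 10.2 FPKM, NAV2 at 26.7 and 18.4, and ARAP1, alone of these 3 in being higher in processed cells, at 13.9 and 32.4. How far length, shared exons and the 3′ part of a transcript bear on these differences was not tested.

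**Figure D2:**
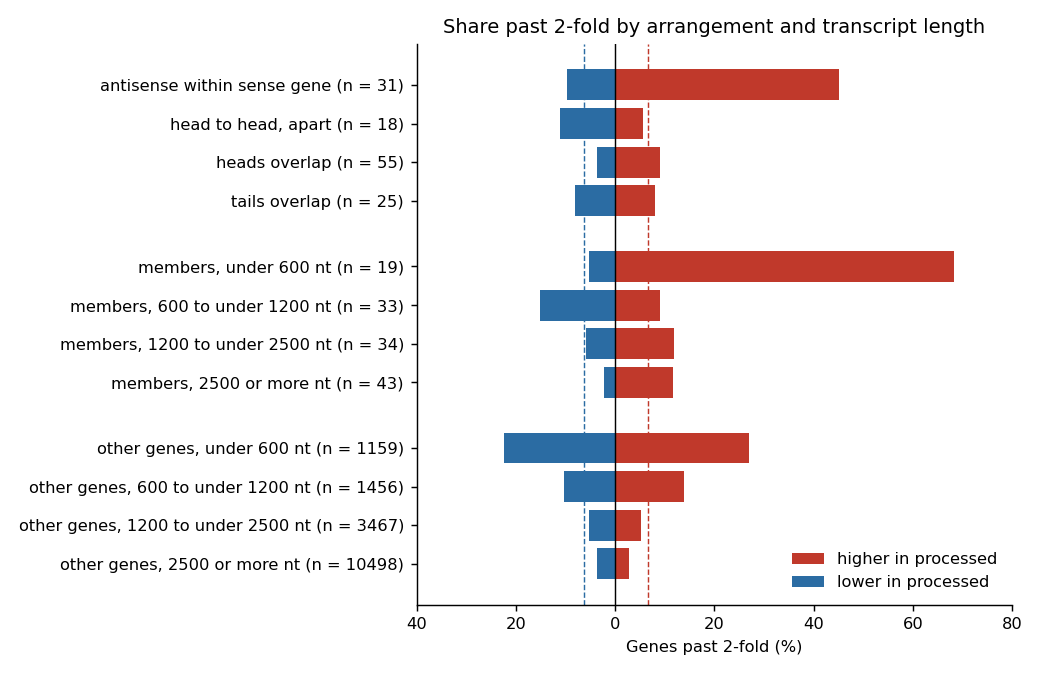
Percent of genes past 2-fold higher (red, right) or lower (blue, left) in processed cells, by arrangement of the antisense gene (top), by the longest transcript of the members (middle) and by the longest transcript of all other genes at the same FPKM limit (bottom), with n in each label. Dashed lines give the background of 6.57% and 6.19%. The bars for genes inside the sense gene and for members under 600 nt reach 45.2% and 68.4%. Both include members that passed the limit in a single library, and 4 of the 19 members under 600 nt reached it in both. Lengths of members count transcripts within the listed position, and those of other genes count transcripts at any position.

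The counts of other classes at the same limit give a scale for those of the members. Of 56 LINC genes 4 (7.14%) were past 2-fold higher and 10 (17.9%) lower, with a median log2 difference of -0.16. Of 131 sense genes at the limit 3 were higher and 3 lower, and of 13439 protein-coding genes in the members' range of mean level, 3.15% were higher and 3.52% lower. The classes were also compared within ranges of mean level. Between a mean of 3 and 10 FPKM, 10 of 42 antisense genes (23.8%) were higher, beside 1 of 17 LINC genes, 3.45% of 3975 protein-coding genes and 6.68% of all genes. Between 1 and 3 FPKM it was 14 of 67 (20.9%), 0 of 17, 8.49% of 2050 and 13.6%. Between 0.5 and 1 FPKM, 4 of 24 antisense genes (16.7%) were higher, beside 16.3% of all genes. At a mean of 10 FPKM or more it was 2 of 12 antisense genes and 2 of 10 LINC genes. Many of these higher antisense genes are members through processed cells only, the library in which they are high. That holds for all 4 between 0.5 and 1 FPKM and for all 14 between 1 and 3 except NR2F2-AS1. Between 3 and 10 it holds for NICN1-AS1, ABHD11-AS2 and DNAJC9-AS1, and above 10 for ARAP1-AS1. PPP2R3B-AS1 enters the 14 with both its X and its Y entry. The shares thus depend on the limit. The SD of the log2 difference over genes was 1.03 for the antisense genes, 0.86 for LINC genes and 0.53 for the protein-coding genes. These are counts within 1 pair of libraries, and no test of the classes was made.

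Antisense genes beside developmental transcription factors are of interest in Stage 6 cells, whose lineages such factors set. The list used here names 141 genes or clusters; 39 antisense entries in the files belong to them, and 9 were members. SOX21-AS1, beside a SOX family factor of the nervous system, stood at 2.74 FPKM (2.37 to 3.11) in live and 5.39 (4.96 to 5.81) in processed cells, and PROX1-AS1, beside a homeobox gene of pancreatic and lymphatic development, at 0.662 and 1.47. Past 2-fold higher were 3 of the 9, NR2F2-AS1, MEIS1-AS1 and HOXA-AS4, and none was lower, beside 6.57% and 6.19% of the 17326 genes. PROX1-AS1, MEIS1-AS1 and HOXA-AS4 reached FPKM 1 in processed cells only, so they are members through the library in which they are high.

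NR2F2-AS1 lies beside the nuclear receptor gene NR2F2 and shares no exon base with it. It stood at 1.15 FPKM (0.809 to 1.49) in live and 4.18 (3.49 to 4.88) in processed cells, while NR2F2 held at 49.7 and 50.4. MEIS1-AS1 was listed at 2.36e-28 in live and 2.18 (1.46 to 2.91) in processed cells, but it shares nearly all of its span with the entry MEIS1-AS2, so the split of reads between them is uncertain. The homeobox clusters gave HOXB-AS1, at 7.90 and 6.56, HOXA-AS2, at 5.31 and 2.83, and HOXA-AS4, at 0 and 1.77, so that the HOXA entries differed in opposite directions. The median log2 difference over the 9 was 0.57, beside 0.10 over the members and -0.09 over the 17326 genes. That median includes the entries that passed the limit in processed cells only.

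The second list holds 81 antisense RNAs with published work, of which 46 are in the files and 26 were members. Their levels ranged from 152 FPKM for ZNFX1-AS1 to 0.438 for DDX11-AS1 in live cells, and their median log2 difference was -0.13. MCM3AP-AS1, opposite the gene of a nuclear RNA export factor, was past 2-fold higher, at 2.42 (2.07 to 2.76) and 6.77 (6.12 to 7.41). PITPNA-AS1 was past 2-fold lower, and the remaining 24 were within 2-fold. MAPKAPK5-AS1 came close, at 8.86 (8.14 to 9.57) and 4.13 (3.65 to 4.60), and TTN-AS1, opposite the titin gene of muscle, stood at 5.0 and 3.25. Bounds overlapped between the libraries for 7 of the 26, among them LOXL1-AS1, at 3.0 and 2.74, and ST7-AS1, at 1.83 and 2.19.

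**Figure D3:**
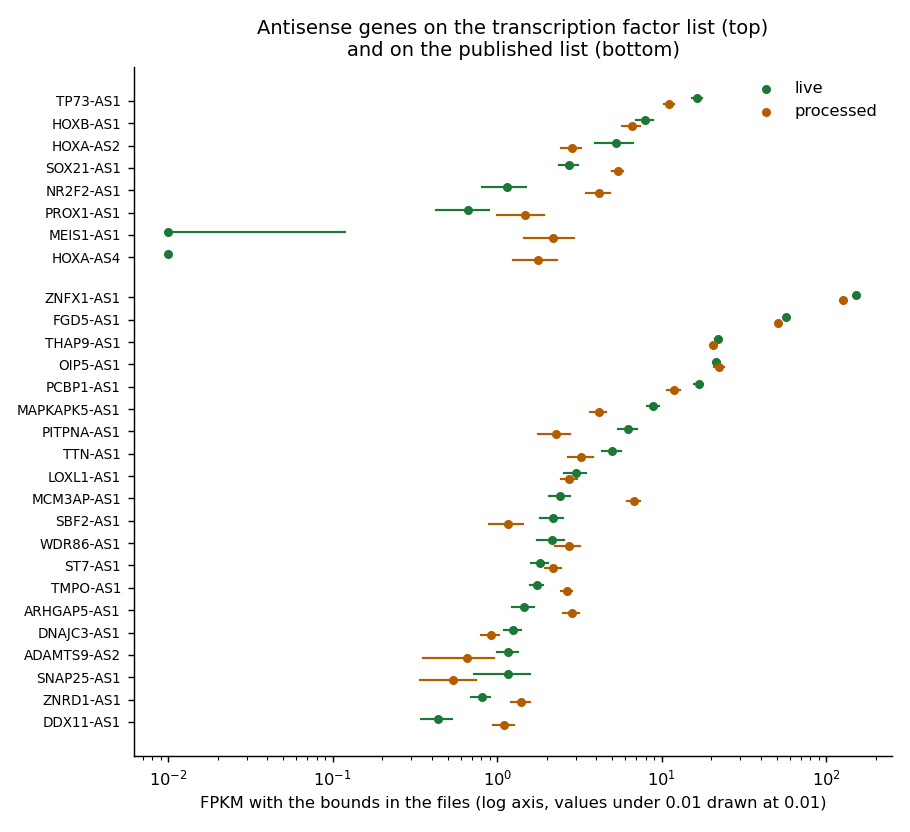
FPKM in the live (green) and processed (orange) library, on a log axis, of antisense genes on the transcription factor list (top) and of members on the published list alone (bottom), each with the bounds in the files; values under 0.01 are drawn at 0.01. NR2F2-AS1, MEIS1-AS1 and HOXA-AS4 are past 2-fold higher in processed cells in the upper block, and MCM3AP-AS1 in the lower.

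Within a library, FPKM is per length, and antisense and sense genes can be set side by side. A sense gene was found for 142 members, the exceptions being the entries named after a HOX cluster. The antisense gene was below its sense gene in 118 of 142 pairs in live cells and in 110 of 142 in processed cells. The median sense gene stood at 11.3 and 9.52 FPKM, and the median log2 level of antisense over sense, with 1 added to both, was -1.97 (95% order-statistic interval -2.27 to -1.62) in live and -1.75 (-2.20 to -1.22) in processed cells. The antisense gene was more than 10 times lower in 56 pairs in live and 44 in processed cells. TPT1-AS1 was the extreme among the abundant ones, at 14.1 beside 1535 FPKM of TPT1 in live cells, and PCBP1-AS1 stood at 16.8 beside 212 of PCBP1, the gene of a poly(C)-binding protein.

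In 20 pairs the antisense gene was above its sense gene in both libraries, in 4 in live cells only and in 12 in processed cells only. C17orf76-AS1 led, at 437 and 408 FPKM beside 1.35 and 1.45 of its sense gene, listed as FAM211A and now LRRC75A. ZNFX1-AS1 stood beside 1.77 and 1.53 of ZNFX1, an antiviral helicase gene, and FGD5-AS1 beside 0.640 and 0.366 of FGD5, a gene of endothelial cells. CD27-AS1 stood at 10.7 and 6.02 while the lymphocyte receptor gene CD27 was at 0.350 and 0.541, and TTN-AS1 was above TTN, at 0.105 and 0.127. TP73-AS1 was above TP73, a p53 family gene, which stood at 1.51 and 1.37, and THAP9-AS1 above THAP9, at 2.80 and 2.86. OIP5-AS1 was above OIP5, at 6.65 and 5.81, and in all 8 of these pairs the antisense gene was above its sense gene in both libraries. Across the 142 pairs the log2 levels of antisense and sense were hardly related, with Pearson r of -3.58e-04 in live and 0.0544 in processed cells and Spearman rho of 0.0243 and 0.111. These are values across genes of 1 library, given as a description, and the members were chosen by their own level.

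**Figure D4:**
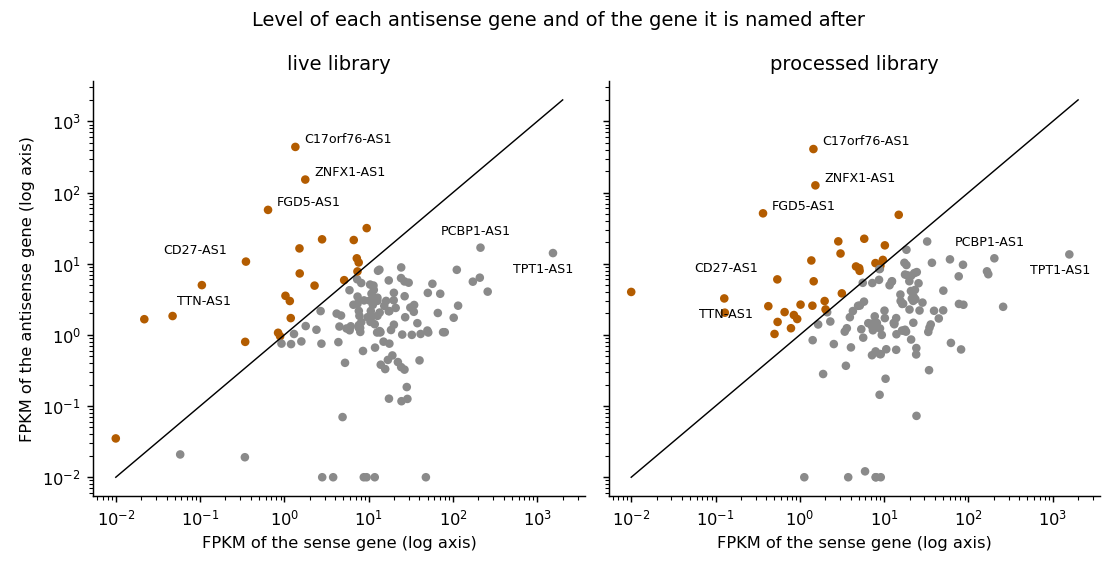
FPKM of each antisense gene (vertical, log axis) against that of its sense gene (horizontal, log axis) in the live library (left) and the processed library (right), with values under 0.01 drawn at 0.01 and the line of equal level. Orange points are antisense genes above their sense gene, 24 of the 142 pairs in live and 32 in processed cells, counting both copies of the pseudoautosomal pairs.

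The differences between the libraries were also compared within pairs. The log2 differences of antisense and sense gene had the same sign in 69 of 142 pairs (48.6%) and opposite signs in 73, a nearly even split. In 33 pairs both were higher in processed cells, in 36 both were lower, in 45 only the antisense gene was higher and in 28 only the sense gene. The antisense gene had the larger absolute difference in 103 pairs. Among the 40 pairs whose antisense gene was past 2-fold, the sense gene was within 2-fold in 38 and past it in the same direction in the other two, ARAP1-AS1 with ARAP1 and DLGAP1-AS2 with DLGAP1. DLGAP1-AS2, inside the gene of a synapse scaffold protein, stood at 0.809 (0.682 to 0.936) and 2.93 (2.69 to 3.18), and DLGAP1 at 1.59 and 5.77, although the pair shares no exon base. Pearson r between the log2 differences over the 142 pairs was 0.139 and Spearman rho 0.0496, as a description across genes of the same libraries.

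The reverse case, a sense gene past 2-fold beside an antisense gene within 2-fold, occurred for 4 pairs. ZNRD1, the gene of an RNA polymerase I subunit, stood at 15.0 FPKM in live and 1.65 in processed cells, while ZNRD1-AS1 stood at 0.803 and 1.4. BOLA3, a mitochondrial iron-sulfur cluster gene, stood at 17.6 and 6.49 beside BOLA3-AS1 at 2.16 and 1.46. ZNF582, a zinc finger gene, stood at 4.50 and 1.42 beside ZNF582-AS1 at 1.31 and 0.842, and the myosin light chain kinase gene MYLK at 4.17 and 10.2 beside MYLK-AS1 at 1.99 and 1.72. The first of these went in opposite directions within the pair, as did the last, and the other two in the same direction.

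**Figure D5:**
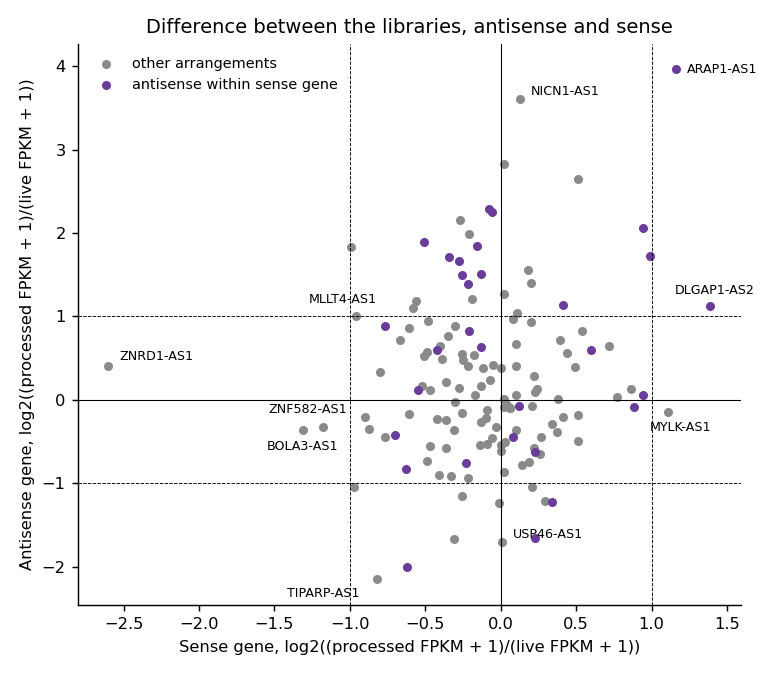
Log2 difference between the libraries, log2((processed FPKM + 1)/(live FPKM + 1)), of each antisense gene (vertical) against that of its sense gene (horizontal), with dashed lines at 2-fold and antisense genes inside their sense gene in purple. The spread is vertical: antisense genes reach 3.96, most sense genes lie within 2-fold, and ARAP1-AS1 and DLGAP1-AS2 are alone in the upper right corner.

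Pairs that start head to head share the stretch of DNA between their starts, so their differences can be set beside that sequence. The gaps of the 18 pairs that do not overlap ran from 14 to 1483 bases with a median of 204, and 10 were at most 300 bases long. The stretches of 5 pairs are shown as examples, chosen after their values were seen, of pairs that differed in opposite directions, in the antisense gene alone or in the same direction. None of the 5 has both genes higher in processed cells. They are from GRCh37, read on the strand of the antisense RNA, which starts just after the last base, while the sense gene starts just before the first base and is read the other way. Capitals mark the GC box and the CCAAT box as above, on either strand, and none of the 5 held a TATA box. Their positions are chr6:168227467-168227601 (minus strand), chr4:53525503-53525572 (plus), chr2:74375122-74375135 (plus), chr1:213031431-213031596 (minus) and chr7:77325583-77325759 (minus), in the order printed.
MLLT4-AS1: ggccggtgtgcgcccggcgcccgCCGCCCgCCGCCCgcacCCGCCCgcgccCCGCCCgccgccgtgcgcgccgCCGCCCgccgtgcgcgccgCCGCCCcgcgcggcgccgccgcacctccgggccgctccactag
USP46-AS1: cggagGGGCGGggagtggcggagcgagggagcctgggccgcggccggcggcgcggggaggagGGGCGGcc
BOLA3-AS1: cggccCCGCCCcgg
FLVCR1-AS1: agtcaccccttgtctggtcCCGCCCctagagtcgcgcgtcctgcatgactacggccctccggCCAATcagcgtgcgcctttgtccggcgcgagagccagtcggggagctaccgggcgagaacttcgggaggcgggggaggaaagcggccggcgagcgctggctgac
RSBN1L-AS1: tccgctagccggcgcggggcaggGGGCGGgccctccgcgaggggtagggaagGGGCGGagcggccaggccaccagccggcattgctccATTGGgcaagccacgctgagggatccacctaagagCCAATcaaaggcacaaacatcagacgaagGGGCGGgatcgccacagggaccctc

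Of the 18 pairs that do not overlap, 9 had differences of the same sign. Across the 135 bases of 91.9% GC between MLLT4-AS1 and MLLT4, the gene of the junction protein afadin, the antisense RNA was higher in processed cells, at 2.57 FPKM (2.26 to 2.89) and 6.64 (5.88 to 7.41), and MLLT4 was lower, at 115 (112 to 117) and 76.7 (74.5 to 78.9). Across 70 bases, USP46-AS1 was lower, at 3.03 (2.64 to 3.43) and 0.242 (0.172 to 0.313), while USP46, a deubiquitinase gene, stood at 10.3 and 10.4. Only 14 bases lie between BOLA3-AS1 and BOLA3, and both were lower. FLVCR1-AS1 stood at 1.52 (1.21 to 1.83) and 0.518 (0.420 to 0.615) beside the heme exporter gene FLVCR1 at 10.5 and 7.18, both lower as well. RSBN1L-AS1, also known as APTR, stood at 10.4 and 9.14 with overlapping bounds, above RSBN1L at 7.61 and 4.64. Its stretch and that of FLVCR1-AS1 were those of the 5 with both boxes.

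The starts themselves differed with the arrangement. RefSeq held a promoter window of 300 bases, 250 before and 50 after the start, for 102 of the members. The GC box letters were in 47.1% of these windows and in 44.6% of all 27305 windows, CCAAT in 26.5% and 35.7%, and TATAAA in 3.92% and 12.0%. For the 62 members that lie head to head with the sense gene, overlapping or apart, the GC box share was 56.5%. Their median ratio of observed to expected CG pairs was 0.804. For the 17 inside their sense gene with a window these values were 17.6% and 0.280, beside a median ratio of 0.580 over all windows. The windows of the 25 tail-overlapping genes were more like the first group, with a GC box in 47.1% and a median ratio of 0.746 among the 17 matched. A ratio near 1 marks a CpG-rich promoter, and a low ratio is the rule in most of the genome. Genes inside their sense gene were thus the group with the lowest median ratio of the 3, and whether this bears on their differences was not tested.

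Some sense genes have several numbered antisense genes, and in most families a single one was expressed. NAV2 has 5 in the files, and all but NAV2-AS1 were listed at 0 in both libraries. MAGI2-AS3, at 7.29 and 5.66 FPKM, was likewise alone among 3 for the scaffold gene MAGI2. ZNF503-AS2, at 5.63 and 7.62, stood beside a ZNF503-AS1 at 0. FGF12 had 2 expressed members on the plus strand within its gene, FGF12-AS2 at chr3:192232811-192234362 and FGF12-AS3 at chr3:192234620-192239187, and both were lower in processed cells, the latter at 1.37 (0.698 to 2.05) and 0.536 (0.463 to 0.610). DLGAP1 has 5, of which DLGAP1-AS1 stood at 0.169 and 0.139, below the limit, and DLGAP1-AS3 and DLGAP1-AS5 went from 0.00970 to 0.682 and from 0.00216 to 0.572. ABHD11-AS1, the neighbour of ABHD11-AS2, was at 0 in both libraries, and ARAP1-AS2 went from 4.31e-86 to 0.262 beside the much larger difference of ARAP1-AS1. GAS5-AS1, opposite the snoRNA host GAS5, which stood at 79.9 and 62.0, was near the limit in both libraries, at 1.09 and 0.771.

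How deep a value goes depends on length. In genes with a single annotated transcript, the low FPKM values multiplied by the length less 170 nt fell on steps of 0.010 in live and 0.0107 in processed cells, taken here as 1 fragment. On that estimate FPKM 1 in a transcript of 1 kb stands for 82.8 and 77.3 fragments. ARAP1-AS1, of 388 nt, then rests on 8.28 fragments in live and 415 in processed cells, and RNF185-AS1 on 78.2 and 308, whereas OIP5-AS1 rests on 9595 and 9329. The depth is an estimate, since read counts were not used here, and it assumes that fragments were shared out in whole numbers.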

How the data were processed

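RNA-seq of 1 live and 1 processed library of Stage 6 cells was used. The authors aligned paired reads with STAR 2.2.0c to GRCh37/hg19, guided by GENCODE release 14, and deposited FPKM per gene with bounds and a fit status. Cuffdiff is named in the methods, and Cufflinks 2.0.2 in the submitters' processing notes. FPKM was estimated by maximum likelihood, which shares fragments between overlapping transcripts, and for a transcript near the fragment length it rests on few positions. The level of the bounds and the handling of strand are not given in the sources used here.

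Libraries were joined by gene identifier in pandas 2.3.3 under Python 3.11.15, with scipy 1.17.1 for intervals and correlations, numpy 2.4.6 for arrays and matplotlib 3.10.9 for plots. Log2 differences used a pseudocount of 1 FPKM, which understates the change of low genes, and calls used 2-fold. With 1 library per condition there is no test and no replicate error. Strand, exons and transcript length came from GENCODE release 44 on GRCh37, a later release. A member's length counts only transcripts within its listed position and was left out where there was none. For other genes the longest transcript was taken wherever it lay. Promoter windows came from RefSeq. The calculations were tested on simulated libraries of 55797 genes, in which 200 of 200 genes changed 4-fold were recovered, with fragment sampling as the only noise. The changed genes were drawn from those at 10 FPKM or more in live cells, a level that 12 of the 145 members reached. Recovery of changes at lower levels was not simulated.

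The members and gene lists were chosen with earlier results of these data known. The text names the 10 highest members, the 5 largest differences each way, members at 0 in 1 library, 3 genes on each side of the limit, the 8 furthest above their sense gene, numbered families and members of the 2 lists. Alternatives covered the pseudocount, the FPKM limit, scaling, status and the sense genes. Microarray and qRT-PCR data were not analysed here, and 1 listed member is not reported here by name.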

Additional observations from a re-analysis of the deposited data

How the results depend on the processing

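The counts past 2-fold depended on how low levels were treated. Of 30 genes higher and 11 lower in processed cells among the 145, a pseudocount of 5 left 7 and 0. A limit of FPKM 1 in both libraries left 9 and 1 of 81 genes, and a limit of FPKM 3 in either library 18 and 4 of 66. The first of these limits takes out the members that passed in a single library, which hold most of the calls. A pseudocount of 0.1 gave 44 and 22. Dividing processed FPKM by the median processed/live ratio of 0.932, a shift of 0.10 on the log2 scale, gave 32 and 11. Of alternatives chosen after seeing the data, members of at least 600 nt gave 12 higher and 8 lower, and members with at most 50% shared exon bases 18 higher and 7 lower. The median log2 difference of 0.10 stayed within its interval of -0.09 to 0.38 in every alternative run, from -0.07 in members of at least 600 nt to 0.17 under median scaling. Separate bounds (111 of 145 genes) were found for 51 of 81 at FPKM 1 in both, 317 of 513 genes above 0 and 53 of 66 at FPKM 3. Antisense genes above their sense gene (24 live, 32 processed) were 50 and 49 in the set of 513 without a limit, and 20 in processed cells in the set of 66 at FPKM 3. The median level over the sense gene (-1.97 live, -1.75 processed) was -2.39 and -2.28 with a pseudocount of 0.1, -1.09 and -1.02 with 5, -2.55 and -2.42 without a limit, and -1.54 and -1.04 at FPKM 3. Pairs of the same sign (69) were 38 in the set of 81 genes at FPKM 1 in both, 239 in the 513 without a limit and 30 in the 66 at FPKM 3. The sets differ in size, and not every gene in a set has a sense gene, so a change in a count is not a change in a share. The cause of these shifts was not tested. Of 70 values, 43 were within 1.5 times the reported count or inside its interval, with counts compared as they stand and not as shares. No paired analysis was possible because each condition has 1 library. Depth limits short members most, and the spread between libraries of one condition cannot be known.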

Other observations

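Genes with related names that the rule does not take were also measured. Of 6 genes ending in -AS without a number, 3 reached FPKM 1 in either library: IGF2-AS, beside the imprinted growth factor gene IGF2, at 11.3 FPKM in live and 9.48 in processed cells, BDNF-AS, beside the neurotrophin gene BDNF, at 1.33 and 3.64, and PINK1-AS, beside the mitochondrial kinase gene PINK1, at 2.30 and 1.4, none past 2-fold. Of 153 genes ending in -IT and a number, which are read on the sense strand inside an intron, 7 reached the limit. Past 2-fold higher were 3 of them, FMR1-IT1 at 1.02 and 3.23, ZDHHC20-IT1 at 0.387 and 3.40 and TCF7L1-IT1 at 0 and 1.21. None was lower, and the background was 6.57% higher and 6.19% lower. ZDHHC20-IT1 and TCF7L1-IT1 reached FPKM 1 in processed cells only, so their calls depend on that limit. SOX2-OT, which overlaps the gene of the stem cell factor SOX2, stood at 1.15 and 0.00227.

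The later annotation kept the name of 106 of the 145 members, and 12 now end in -DT, for divergent transcript. It lists TOPORS-AS1 as protein-coding, TP73-AS1 and ZNRD1-AS1 as transcribed pseudogenes, and SMAD9-AS1 on the strand of SMAD9. Members were most numerous on chromosome 3, with 18.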
